A study of Mus musculus with 117 samples.

Results

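The regions described are the H3K27ac peaks of mouse embryonic fibroblasts (MEF) and of mouse embryonic stem (ES) cells. They are every peak of the 2 lists deposited for these cells, 37379 in MEF and 25273 in ES cells, together 62652 of the 563630 peaks in the 32 lists of the series. A peak was called shared when at least 1 bp of it lay in a peak of the other list, and MEF-only or ES-only when none did. The MEF were wild type, taken at E13.5 (embryonic day) and at passage 1, and the ES cells were wild type at passages 15 to 20. Neither carried the reprogramming factors. Each list was made from both of 2 replicates, so there is 1 list per cell type and the spread between replicates is unknown. Differences between the lists were therefore not tested, and intervals beside a percentage are Wilson 95% intervals that treat peaks as independent and cover counting error only.

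H3K27ac is acetylation of lysine 27 of histone H3. It is placed mainly by the acetyltransferases p300 and CBP, removed by histone deacetylases, and found at active promoters and active enhancers. Methylation of the same lysine, H3K27me3, is placed by Polycomb complexes at silent genes, and 1 histone tail cannot carry both. H3K4me3 marks promoters and H3K4me1 marks enhancers, so the pair separates promoter-like from enhancer-like acetylated regions, while H3K9me3 marks heterochromatin. SUMO-1 and SUMO-2 are small proteins that are attached to other proteins, many of them on chromatin, by a cascade of E1, E2 and E3 enzymes, and removed by SUMO proteases.

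The MEF list covered 52.7 Mb and the ES list 46.4 Mb of the mm9 assembly. The lists of the other marks differed in length between the cell types. H3K4me3 had 15052 peaks in MEF and 26309 in ES cells, H3K4me1 25401 and 12021, H3K27me3 11276 and 5237, H3K9me3 12020 and 8508, SUMO-1 12408 and 12339, and SUMO-2 9979 and 12014. A percentage for MEF and the same percentage for ES cells thus rest on lists of unequal length, whereas specific and shared peaks of 1 cell type are set against the same lists. Peaks were not assigned to genes here.

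Most H3K27ac peaks of either cell type, as deposited, were specific to it. With peaks under 1000 bp apart merged, this no longer held in ES cells (49.1% specific). In MEF, 24952 peaks (66.8%, interval 66.3 to 67.2) were MEF-only and 12427 (33.2%) were shared. In ES cells, 13635 peaks (54.0%, interval 53.3 to 54.6) were ES-only and 11638 (46.0%) were shared. After overlapping peaks were joined, the 2 lists formed 49804 regions, of which 50.1% were acetylated in MEF alone, 27.4% in ES cells alone and 22.5% in both. The bases in common were 14.9 Mb, or 28.2% of the acetylated bases of MEF and 32.0% of those of ES cells. With the 25273 highest-scoring MEF peaks set against the ES list, so that both lists were equally long, the shared percentages were 41.3% in MEF and 39.8% in ES cells. Most overlaps joined 1 MEF peak to 1 ES peak (9756 of 12848 pairs over the whole lists). Lists of equal length therefore give nearly equal percentages by construction. The shared percentage also varied between autosomes, in MEF from 24.4% on chromosome 3 to 44.7% on chromosome 11 and in ES cells from 38.7% on chromosome 1 to 54.8% on chromosome 19.

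Shared peaks ranked high in both lists by the authors' score, used here only as a percentile rank within its own list, so that a strong peak means one of high rank. The median rank was 68.3 for shared and 40.5 for MEF-only peaks, and 63.9 for shared and 38.2 for ES-only peaks. From the lowest to the highest score decile, the shared percentage went from 13.8% to 54.6% in MEF and from 24.3% to 68.3% in ES cells. The strongest acetylation was therefore not all common to both cell types. In the highest decile, 1697 MEF peaks and 802 ES peaks had no counterpart.

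**Figure D1:**
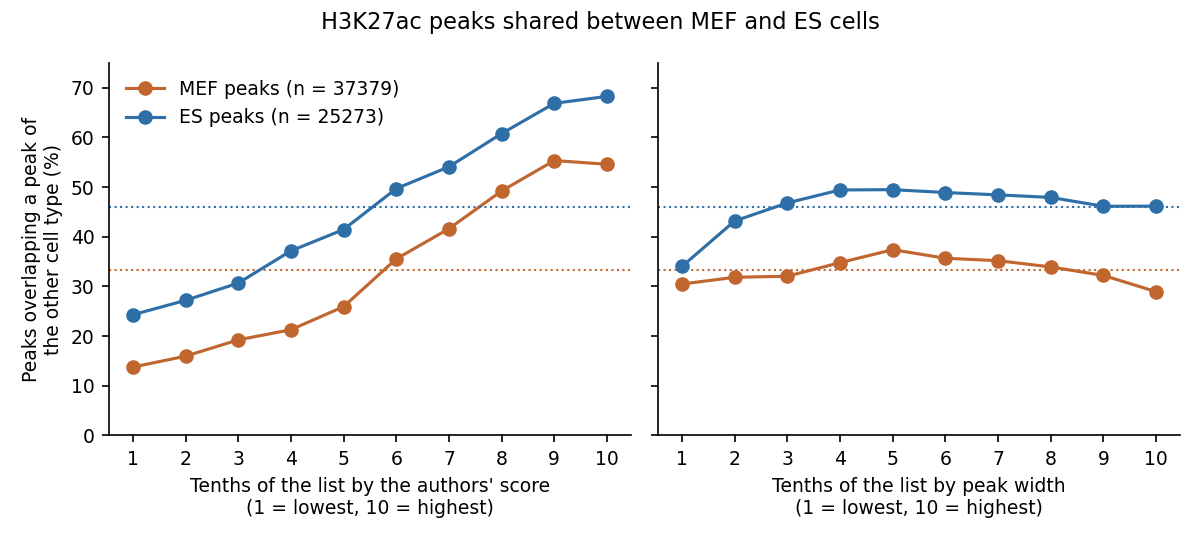
The percentage of H3K27ac peaks that overlap a peak of the other cell type (y axis) by decile of the authors' score (left) and of peak width (right), for MEF (orange) and ES (blue) peaks, with the percentage over the whole list dotted. Sharing is 13.8% in MEF and 24.3% in ES cells in the lowest score decile and 54.6% and 68.3% in the highest, and by width it stays between 28.9% and 37.4% in MEF and between 34.0% and 49.5% in ES cells.

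Peak width separated the classes little. The median width was 1154 bp for shared and 1156.5 bp for MEF-only peaks, and 1473.5 bp for shared and 1401 bp for ES-only peaks. By width decile the shared percentage ran only from 28.9% to 37.4% in MEF. In ES cells it was 34.0% among the narrowest peaks and 43.2% to 49.5% in the other deciles. Among the 25273 highest-scoring MEF peaks the shared peaks were narrower than the specific ones, by 172 bp at the median, so the near equality of widths in MEF held only with the weak peaks included.

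Summits were compared in pairs of overlapping peaks, so that the overlap itself limits their distance. In 9756 of the 12848 overlapping pairs, 1 MEF peak and 1 ES peak overlapped each other and nothing else. The other pairs were left out. The summits of the 9756 pairs lay a median of 82 bp apart (quartiles 29 and 320 bp), and 67.0% lay within 200 bp. The ES peak was the wider of the pair in 68.1% of cases, at medians of 1396.5 bp in ES cells and 1178.5 bp in MEF. Rank in one list said little of rank in the other, with a Spearman coefficient of 0.30 over the 9756 pairs, given as a description since the points share their genome position and their libraries. The 8021 pairs with H3K4me3 and no H3K4me1 in MEF had the same H3K4 methylation in ES cells in 89.9% of cases, with summits a median of 76 bp apart. For the 516 pairs with H3K4me1 and no H3K4me3 in MEF the percentage was 51.9% and the distance 277.5 bp.

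Few specific peaks lay directly beside acetylation of the other cell type. The nearest ES H3K27ac peak was a median of 63296 bp from a MEF-only peak, and 5.80% of MEF-only peaks had one within 1000 bp. For ES-only peaks the median distance to MEF acetylation was 17342 bp and 12.9% had a peak within 1000 bp, against a MEF list that is the longer of the pair. Specific peaks with H3K4me3 alone were nearest, with 22.4% of MEF-only and 27.7% of ES-only peaks within 1000 bp. Those with H3K4me1 alone were farther, at 1.76% and 5.96%. Within 12500 bp, 20.8% of MEF-only and 42.6% of ES-only peaks had acetylation of the other cell type, and of ES-only peaks with H3K4me3 alone 53.4% did.

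Specific and shared peaks differed most in H3K4 methylation. In MEF, H3K4me3 was present at 86.3% of shared peaks and at 17.8% of MEF-only peaks, a difference of -68.4 percentage points for specific minus shared. In ES cells it was present at 91.7% of shared and 34.8% of ES-only peaks, a difference of -56.9 points. H3K4me1 went the other way, at 10.4% of shared and 49.5% of MEF-only peaks, and at 16.0% of shared and 32.2% of ES-only peaks. In each case the intervals of the 2 classes lay far apart.

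**Figure D2:**
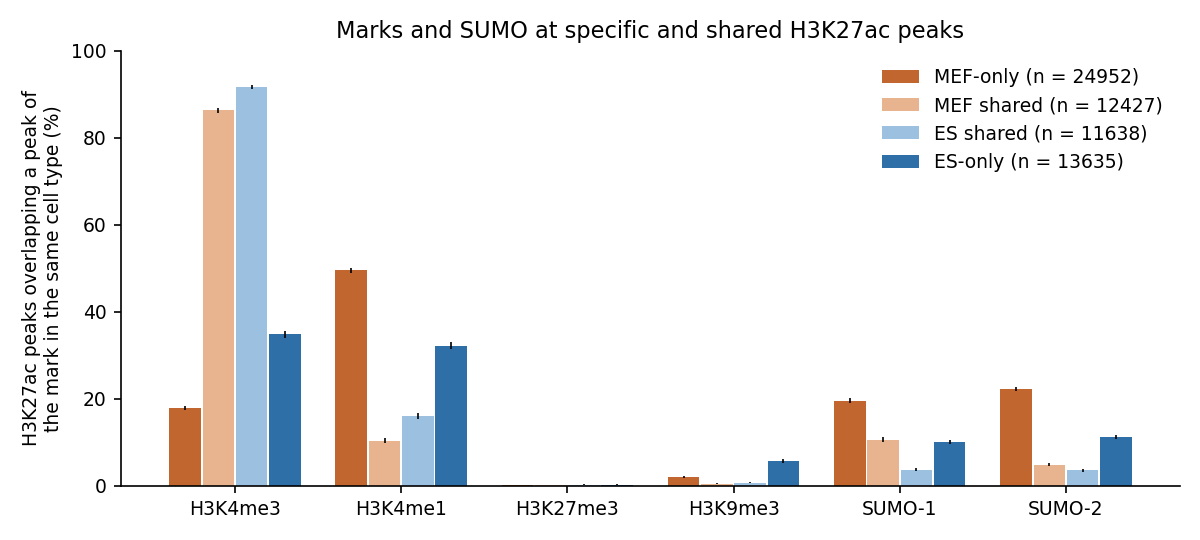
The percentage of H3K27ac peaks (y axis) that overlap a peak of each mark or SUMO form of the same cell type, for MEF-only, MEF shared, ES shared and ES-only peaks, with Wilson 95% intervals as bars. H3K4me3 stands at 86.3% and 91.7% of shared peaks and at 17.8% and 34.8% of specific peaks, H3K4me1 is higher at specific peaks, and H3K27me3 is near 0 in all 4 classes.

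Sorted by H3K4 methylation, shared acetylation was promoter-like. H3K4me3 without H3K4me1 was found at 81.2% of MEF shared and 79.6% of ES shared peaks. MEF-only peaks were 48.1% H3K4me1 alone, 16.4% H3K4me3 alone, 1.41% both and 34.1% neither. ES-only peaks were 25.6% H3K4me1 alone, 28.2% H3K4me3 alone, 6.60% both and 39.6% neither. The peaks with neither mark were weak, with median ranks of 27.5 among MEF-only and 27.2 among ES-only peaks. The few peaks with both marks were strong, with median ranks of 77.3 and 76.0. MEF-only peaks with H3K4me1 alone were wider (median 1373 bp) than those with H3K4me3 alone (1034 bp), and the same held in ES-only peaks (1753 and 1208 bp).

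Acetylation and methylation of lysine 27 almost never met in 1 cell type. H3K27me3 of the same cells touched 46 of the 37379 MEF peaks (0.12%, interval 0.092 to 0.16) and 51 of the 25273 ES peaks (0.20%, interval 0.15 to 0.27). Specific and shared peaks did not differ in this beyond counting error in either cell type, with differences of 0.04 points (interval -0.04 to 0.11) in MEF and -0.04 points (interval -0.16 to 0.07) in ES cells. H3K9me3 was also rare but uneven. It touched 0.40% of shared and 1.98% of MEF-only peaks, and 0.70% of shared and 5.66% of ES-only peaks.

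SUMO lay on specific acetylation more often than on shared acetylation in both cell types. SUMO-1 was found at 19.6% of MEF-only and 10.6% of shared peaks, and SUMO-2 at 22.3% and 4.84%. In ES cells SUMO-1 was found at 10.0% of ES-only and 3.65% of shared peaks, and SUMO-2 at 11.2% and 3.51%. The SUMO lists themselves were much more tied to H3K27ac in MEF. Of the SUMO-1 and SUMO-2 peaks of MEF, 48.4% and 60.2% touched MEF H3K27ac, and of those of ES cells 14.2% and 15.8% touched ES H3K27ac.

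In MEF the overlap of the 2 SUMO forms differed between classes. Of the MEF-only peaks with SUMO-1, 79.6% also had SUMO-2, and of the shared MEF peaks with SUMO-1, 39.2% did. SUMO-1 without SUMO-2 was found at 6.45% of MEF shared and 3.98% of MEF-only peaks, and SUMO-2 without SUMO-1 at 0.68% and 6.68%. The overlap went with H3K4 methylation within both classes. With H3K4me3 alone, 301 of 947 shared and 108 of 295 MEF-only peaks with SUMO-1 also had SUMO-2, and with H3K4me1 alone 129 of 159 and 2915 of 3371 did. In ES cells the 2 forms coincided in both classes, since 77.4% of shared and 85.1% of ES-only peaks with SUMO-1 also had SUMO-2. Summit distances were taken only at H3K27ac peaks that touched SUMO, so the overlap itself limits them. For SUMO-1 the distance was at most 500 bp at 78.6% of such MEF-only and 57.4% of such ES-only peaks. At MEF peaks with SUMO-1, its nearest summit was a median of 333 bp from the summit of a MEF-only peak (quartiles 210 and 465.5 bp) and 316.5 bp from that of a shared peak. In ES cells the medians were 427 bp for ES-only and 410 bp for shared peaks.

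In MEF, the excess of SUMO at specific peaks depended on H3K4 methylation. SUMO-1 or SUMO-2 was present at 26.3% of MEF-only and 11.3% of shared peaks, a difference of 14.97 points. With H3K4me3 alone the percentages were 7.71% for MEF-only and 9.57% for shared peaks, and their intervals lay apart. With the other states MEF-only peaks were the higher, at 38.1% and 31.4% with H3K4me1 alone, 28.5% and 12.9% with both marks, and 18.3% and 14.1% with neither. When MEF-only peaks were weighted to the H3K4 methylation mix of shared peaks, the difference was -0.01 points (interval -0.893 to 0.912), a sum in which H3K4me3-alone peaks had a weight of 81.2% and offset the others. The 2 forms taken singly went opposite ways under this weighting, with SUMO-1 at 9.60% of MEF-only and 10.6% of shared peaks (-1.002 points) and SUMO-2 at 6.68% and 4.84% (1.84 points). This weighting and those named next were chosen after the data were seen. In ES cells the same weighting left 4.12 points (interval 3.36 to 4.93) of 8.36 points, and SUMO was more frequent at ES-only than at shared peaks with H3K4me3 alone (6.60% and 3.41%), with both marks (16.3% and 5.98%) and with neither (15.7% and 10.5%). With H3K4me1 alone the ES values were 13.8% and 11.3%, and their intervals overlapped.

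**Figure D3:**
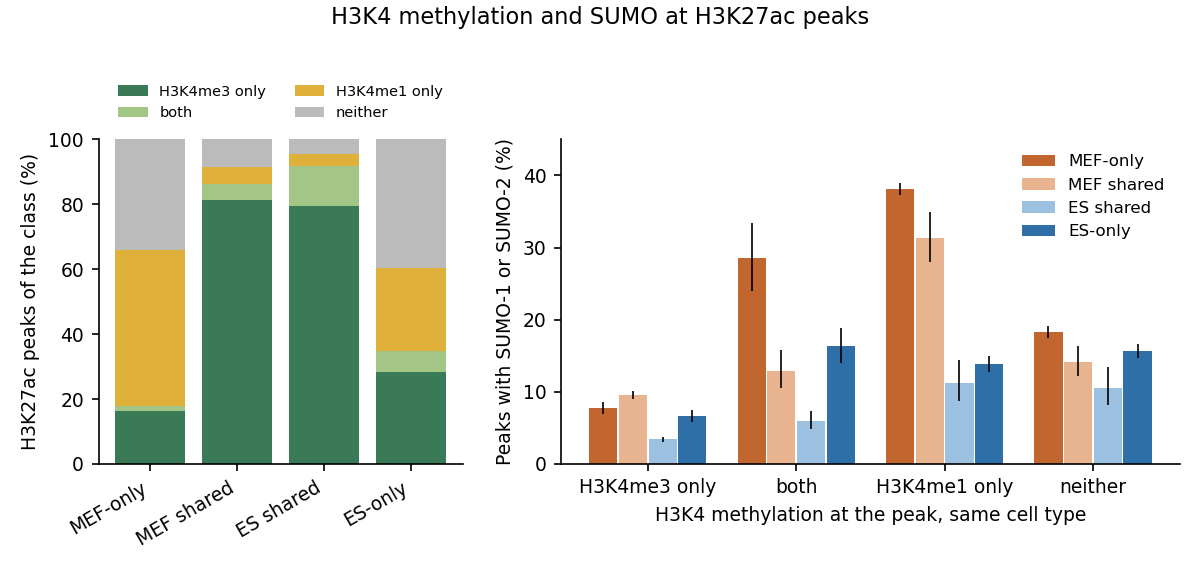
Left, the H3K4 methylation at H3K27ac peaks of each class as a percentage of the class. Right, the percentage of peaks with SUMO-1 or SUMO-2 (y axis) by H3K4 methylation, with Wilson 95% intervals. H3K4me1-alone peaks of MEF have the highest SUMO percentages, 38.1% for MEF-only and 31.4% for shared peaks, and at H3K4me3-alone peaks all 4 classes stay under 10%.

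SUMO went with the strength of specific peaks, and less clearly with that of shared ones. Over the score deciles the percentage of MEF-only peaks with SUMO-1 or SUMO-2 went from 14.1% to 57.9%. That of MEF shared peaks was 9.73% in the lowest decile and 15.1% in the highest. Below the highest decile it stayed between 7.80% and 11.9%. In ES-only peaks it went from 8.05% to 27.6% and in ES shared peaks from 1.95% to 7.18%. Specific peaks were also weighted to the spread of shared peaks over 4 score groups of equal size. The difference between specific and shared peaks was then 23.2 points in MEF and 11.3 points in ES cells, larger than over all peaks. This weighting did not match H3K4 methylation, which still differed within the score groups. In the highest group of MEF, H3K4me3 was at 93.4% of shared and 26.6% of MEF-only peaks, and H3K4me1 at 11.7% and 65.5%. SUMO also went with the width of specific peaks. From the narrowest to the widest decile, the percentage of MEF-only peaks with SUMO went from 12.7% to 48.8%, whereas that of MEF shared peaks was 11.9% in the narrowest, 8.93% in the sixth and 17.8% in the widest. A wide peak offers more bases to touch, and the part of width in SUMO was not tested. Specific peaks had SUMO more often than shared peaks in each of 4 width groups, within which H3K4 methylation still differed. In MEF the percentages were 15.1% for MEF-only and 10.5% for shared peaks in the narrowest group and 41.4% and 15.5% in the widest. In ES cells they were 7.66% and 3.34% in the narrowest and 20.5% and 7.34% in the widest.

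**Figure D4:**
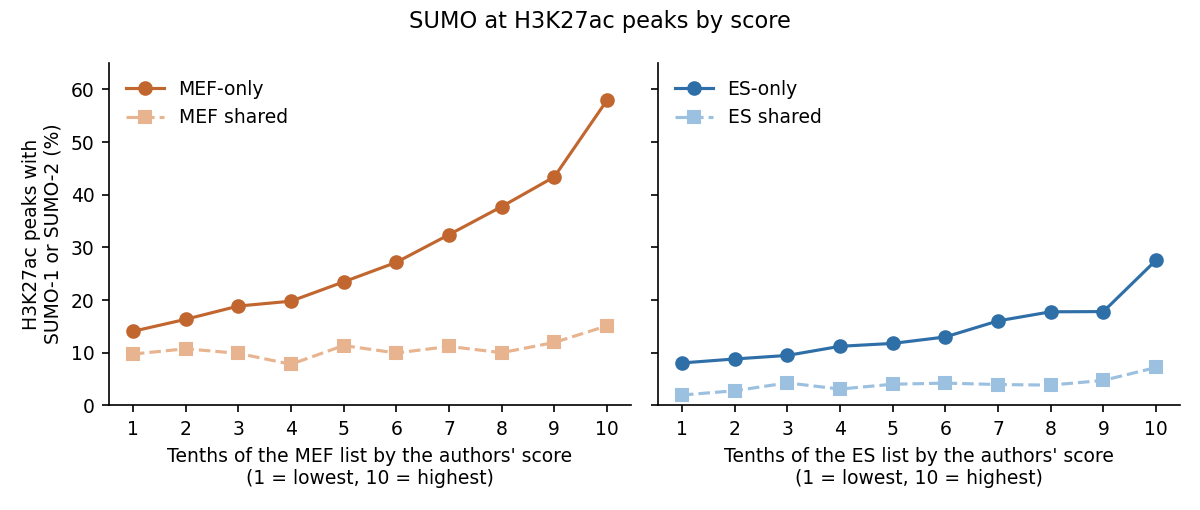
The percentage of H3K27ac peaks with SUMO-1 or SUMO-2 of the same cell type (y axis) by decile of the authors' score (x axis), for MEF (left) and ES cells (right). Circles and full lines are specific peaks, which reach 57.9% in MEF and 27.6% in ES cells, and squares and broken lines are shared peaks, which reach 15.1% and 7.18%.

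A small set of acetylated peaks with H3K9me3 had SUMO most often. SUMO-1 or SUMO-2 was present at 312 of 493 MEF-only peaks with H3K9me3 (63.3%, interval 58.9 to 67.4) and at 25.5% of those without. Among ES-only peaks it was present at 493 of 772 (63.9%, interval 60.4 to 67.2) and at 9.62%. Shared peaks showed the same, at 36 of 50 (72.0%) and 11.04% in MEF, and at 57 of 81 (70.4%) and 3.88% in ES cells. In every class the peaks with H3K9me3 were also wider and had H3K4me3 less often. Among MEF-only peaks the median width was 1672 bp with and 1149 bp without H3K9me3, and H3K4me3 was at 2.43% and 18.1%. Among ES-only peaks the widths were 1769 and 1385 bp, and H3K4me3 was at 9.33% and 36.4%. The part of width and H3K4 methylation in this contrast was not tested. Without the peaks that touch H3K9me3, the difference in SUMO between specific and shared peaks was 14.5 points in MEF and 5.75 points in ES cells.

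The chromatin of the other cell type at specific peaks depended on whether the peak was promoter-like or enhancer-like. Of MEF-only peaks, 82.4% touched none of H3K4me3, H3K4me1, H3K27me3 and H3K9me3 in ES cells, and of ES-only peaks 82.6% touched none of them in MEF. MEF-only peaks with H3K4me1 alone were bare in ES cells in 97.1% of cases, and ES-only peaks with H3K4me1 alone were bare in MEF in 90.3%. MEF-only peaks with H3K4me3 alone kept an H3K4me3 peak in ES cells in 83.2% of cases, although acetylation was not called there. For ES-only peaks with H3K4me3 alone the percentage with H3K4me3 in MEF was 35.3% and 59.3% were bare, with the MEF H3K4me3 list the shorter of the pair.

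Polycomb methylation of the other cell type was most frequent at specific peaks with H3K4me3, with or without H3K4me1. H3K27me3 of ES cells touched 648 of the 24952 MEF-only peaks (2.60%) and 40 of the 12427 MEF shared peaks (0.32%). Of the MEF-only peaks with H3K4me3 alone, 539 of 4097 (13.2%) had H3K27me3 in ES cells, and at 488 of these H3K4me3 was also present there. Of those with H3K4me1 alone, 28 of 11995 (0.23%) had it. H3K27me3 of MEF touched 357 of the 13635 ES-only peaks (2.62%) and 18 of the 11638 ES shared peaks (0.15%). At ES-only peaks with H3K4me3 alone it touched 200 of 3849 (5.20%), and at 29 of these H3K4me3 was also present in MEF. With both H3K4 methylations it touched 63 of 900 ES-only peaks, and with H3K4me1 alone 61 of 3492 (1.75%). For MEF-only peaks with both, the count was 40 of 351. SUMO of the other cell type was rare at specific peaks. SUMO-1 and SUMO-2 of ES cells touched 0.93% and 0.94% of MEF-only peaks, and those of MEF touched 3.0% and 1.42% of ES-only peaks.

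Acetylated peaks clustered in both cell types. Peaks less than 12500 bp apart were joined into 17551 domains in MEF and 12001 in ES cells. Domains of at least 3 peaks numbered 4171 in MEF, of which 49.1% held only MEF-only peaks, 14.0% only shared peaks and 36.8% a mixture. In ES cells they numbered 2837, of which 25.1% held only ES-only peaks, 12.2% only shared peaks and 62.7% a mixture. The largest number of peaks in 1 domain was 28 in MEF and 36 in ES cells.

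A list of 25719 H3K27ac peaks was also used from MEF that had expressed Oct4, Klf4, Sox2 and Myc (OKSM) for 4 days with a control hairpin (shCtrl), with no replicate check. Shared peaks were acetylated on day 4 in 88.9% of MEF and 89.5% of ES peaks. MEF-only peaks were acetylated in 37.3% (interval 36.7 to 37.9), and ES-only peaks in 10.3% (9.82 to 10.8).

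**Figure D5:**
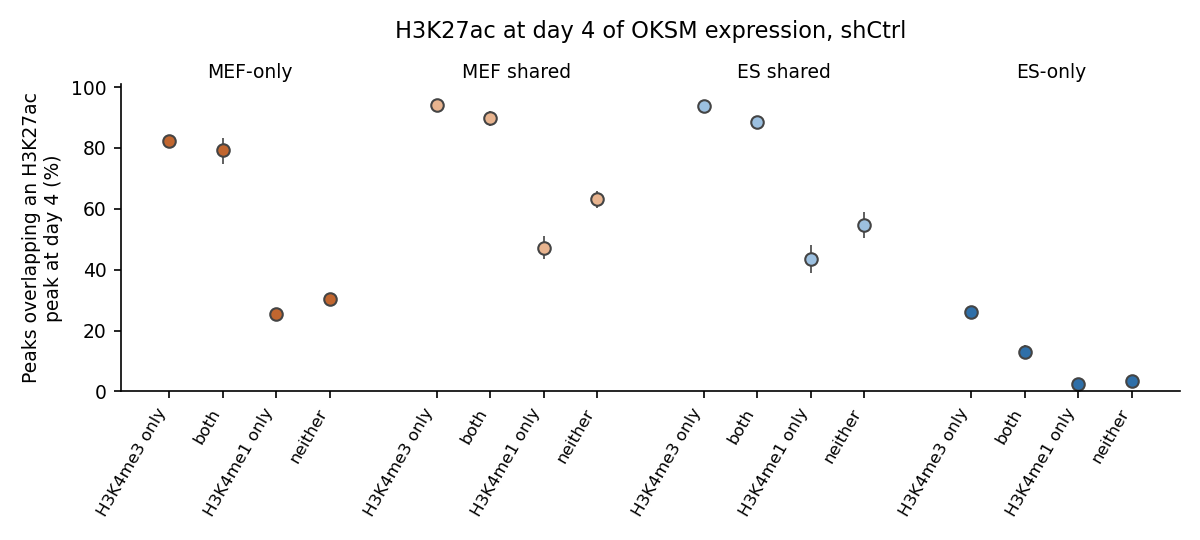
The percentage of H3K27ac peaks of each class (y axis) that overlap an H3K27ac peak on day 4 of OKSM expression with shCtrl, by H3K4 methylation in the cell type of the class, with Wilson 95% intervals as bars. At ES-only peaks with H3K4me1 alone the value is 2.58%, at MEF-only peaks with H3K4me1 alone 25.6%, and at MEF-only peaks with H3K4me3 alone 82.2%.

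Promoter-like specific peaks were acetylated on day 4 more often than enhancer-like ones. MEF-only peaks with H3K4me3 alone were acetylated on day 4 in 82.2%, and those with H3K4me1 alone in 25.6%. ES-only peaks with H3K4me3 alone were acetylated in 26.2%, and those with H3K4me1 alone in 2.58% (interval 2.10 to 3.16). MEF-only peaks acetylated on day 4 had a median rank of 56.6 in MEF, and the others 32.8. In the same cells, Oct4, Sox2 or Klf4 was bound at 37.9% of MEF-only, 87.7% of MEF shared and 27.3% of ES-only peaks. In every class these factors were bound more often at peaks acetylated on day 4. Klf4 was bound at 79.0% of the ES-only peaks acetylated on day 4 and at 15.9% of the others, at 68.2% and 13.3% of MEF-only peaks, and at 86.8% and 37.4% of MEF shared peaks. Sox2 was bound at 62.6% and 10.7% of ES-only peaks and at 49.6% and 7.84% of MEF-only peaks. Binding also went with H3K4 methylation. Klf4 was bound at 69.1% of MEF-only peaks with H3K4me3 alone and 22.9% of those with H3K4me1 alone, and at 40.1% and 15.3% of ES-only peaks. Peaks acetylated on day 4 and the others were not matched for H3K4 methylation or rank, and the part of these was not tested.

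Single regions showed the range behind these percentages. The highest-scoring MEF peak was MEF-only, at chr11:86467000-86470065, with a score of 4499, H3K4me1 without H3K4me3, and both SUMO forms in MEF. It had none of the marks in ES cells, was acetylated on day 4 and was not bound by Oct4, Sox2 or Klf4 there. The next MEF-only peak, chr9:41385621-41392630, had H3K4me3 in both cell types, and the third, chr6:129178225-129183278, resembled the first but for binding of all 3 factors on day 4. The highest-scoring shared MEF peak, chr6:34546307-34557392, was 11086 bp wide and carried both H3K4 methylations and both SUMO forms in MEF, without H3K4me3 or SUMO in ES cells. The highest-scoring ES peak, chr2:166888437-166892961, was shared and had H3K4me3 in both cell types, H3K9me3 in ES cells and no SUMO in either. The highest-scoring ES-only peak, chr3:41359616-41360618, was 1003 bp wide, had H3K4me3 in ES cells and touched nothing in MEF or on day 4.

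Some regions were acetylated in 1 cell type and methylated by Polycomb in the other, and those of highest score are named. The MEF-only peak of highest score with H3K27me3 in ES cells, chr1:165233009-165246586, was 13578 bp wide, had a rank of 99.9 in MEF and carried H3K4me3 in both cell types. The ES-only peak of highest score with H3K27me3 in MEF, chr7:133466913-133471262, was 4350 bp wide and had a rank of 99.6 in ES cells. It had H3K4me3 in ES cells and not in MEF, SUMO-1 in MEF, and no acetylation on day 4. A further ES-only peak, chr3:34548890-34550872, had H3K27me3 in MEF and was bound by Oct4 and Sox2 on day 4 without being acetylated. The ES-only peak of highest score with both SUMO forms, chr4:146790233-146793138, carried H3K4me3, H3K4me1, H3K27me3 and H3K9me3 in ES cells, and H3K9me3 in MEF. The widest ES-only peak, chr6:39382394-39402744, spanned 20351 bp with both H3K4 methylations and both SUMO forms in ES cells. The widest MEF-only peak, chr5:93550851-93567585, spanned 16735 bp with H3K4me1 and both SUMO forms in MEF.

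RNA was measured in separate libraries of 3 per group, MEF with a control hairpin (shCtrl) and ES cells with a control small interfering RNA (siCtrl), and their gene counts totalled 39.9 to 54.0 M per library (M is 1000000 counts). Whether the 3 libraries of a group came from separate cultures is not stated in the labels, so a p-value here reflects the spread among libraries, which may be technical. The groups differ in cell type, passage and control agent at once, which cannot be told apart. With edgeR's quasi-likelihood test, 8653 of 18149 genes were higher in ES cells and 7765 lower, so 90.5% were called (47.7% higher, 42.8% lower), and a call by itself says little of a list. The labelled identities held. All 15 pluripotency markers were higher and all 15 fibroblast markers lower in ES cells. Pou5f1, a core pluripotency factor, was at 0.256 ± 0.066 CPM in MEF and 573 ± 26.7 in ES cells (SD, n = 3), Tdgf1 at 0.022 ± 0.024 and 837 ± 59.0, and Lin28a and Sall4 were at 0 counts in the MEF libraries and at 654 ± 37.4 and 527 ± 48.3 CPM in ES cells. The collagen genes Col1a2, Col3a1, Col1a1 and Col5a2 were at 7764, 7028, 4830 and 4565 CPM in MEF and at 17.3, 3.59, 15.2 and 17.2 in ES cells. Of 8 macrophage markers 5 were lower and 3 higher in ES cells, with a summed level of 115 to 167 CPM in MEF and 54.0 to 61.1 in ES cells. Lyz2, Csf1r, Adgre1, Tyrobp and Ptprc were at 87.5, 15.1, 14.8, 6.89 and 4.51 CPM in MEF. In ES cells these 5 were at 0.019, 0.38, 0, 0.013 and 0.11 CPM. The ES sum was mostly Cd68, Mrc1 and Itgam, at 42.1, 9.45 and 4.94 CPM there and 7.94, 4.70 and 3.45 CPM in MEF. The part of other cells in the MEF peaks was not tested.

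RNA of both p300 and CBP, and of most other acetyltransferases and coactivators listed, was higher in ES cells. The list also holds Mediator subunits, nuclear receptor coactivators and acetyltransferases of other lysines. Of its 17 members, 15 were called higher and 2 lower, with a median log2 fold change of 0.68 beside 0.13 for all genes tested. Most of these changes were small. Calls of at least 2-fold in either direction made up 29.4% of the list and 64.9% of all genes tested. Among all genes tested, 47.7% were called higher and 42.8% lower. Ep300, which encodes p300, had 46.3, 28.6 and 47.5 CPM in the MEF and 136, 218 and 172 CPM in the ES libraries. The groups did not overlap, which held for 90.9% of all genes tested. Ep300 rose by 2.11 ± 0.20 (log2 fold change ± SE, adjusted p = 1.3e-06). Crebbp, which encodes CBP, had 96.5, 63.9 and 87.3 CPM in the MEF and 109, 194 and 144 CPM in the ES libraries, also without overlap (0.85 ± 0.19, adjusted p = 0.0014). Ncoa3, a coactivator of nuclear receptors, had the largest rise of the list, 2.70 ± 0.07. Med12, of the Mediator kinase module, and Ncoa2 were the members called lower, by -0.54 ± 0.10 and -0.26 ± 0.09, and the Ncoa2 libraries overlapped between groups.

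Of 28 deacetylases and corepressors, 12 were higher and 13 lower in ES cells, with a median of -0.08, so their shares were near those of all genes tested (47.7% higher and 42.8% lower). Class I deacetylases went both ways. Hdac1 and Hdac2 were higher by 0.89 ± 0.05 and 0.68 ± 0.08, whereas Hdac3 and Hdac8, named after their values were seen, had log2 fold changes of -0.63 ± 0.06 and -0.91 ± 0.08 and were called lower. Rcor2, a corepressor, was higher by 3.83 ± 0.07, and Sirt1 by 2.58 ± 0.07. Hdac7, a class IIa deacetylase, had 83.5, 71.3 and 78.6 CPM in the MEF and 1.53, 2.12 and 1.55 CPM in the ES libraries, a log2 fold change of -5.49 ± 0.12, and Hdac11 one of -2.62 ± 0.09. Readers of acetyl-lysine were mostly higher in ES cells, with 12 of 17 higher and 4 lower. Their median was 0.68, beside 0.13 for all genes tested. Calls of at least 2-fold in either direction made up 47.1% of the readers and 64.9% of all genes tested. Atad2, which carries a bromodomain, was higher by 2.02 ± 0.08. Smarca2, the BRM ATPase of chromatin remodelling, went the other way, from 123 ± 3.73 to 5.06 ± 0.21 CPM, and Mllt3 was lower by -1.44 ± 0.08.

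Genes of the opposing methylation of lysine 27 had the largest median shift of the 6 lists. Of 14 members, 11 were higher and 1 was lower in ES cells, with a median of 2.0. All genes tested had a median of 0.13, with 47.7% called higher and 42.8% lower. Ezh2, the Polycomb methyltransferase, had 19.6, 21.3 and 23.4 CPM in the MEF and 165, 180 and 170 CPM in the ES libraries (3.003 ± 0.08, adjusted p = 1.1e-11). Jarid2 and Epop, partners of Polycomb complex 2 abundant in ES cells, were higher by 5.06 ± 0.06 and 5.78 ± 0.12, and Phf1 was lower by -2.32 ± 0.10. Of the demethylases of lysine 27, Kdm6a was higher by 1.54 ± 0.06. Kdm6b did not pass the test, at 20.0, 9.97 and 19.2 CPM in MEF and 13.8, 39.3 and 26.2 CPM in ES cells (0.70 ± 0.34, adjusted p = 0.070), with overlapping libraries.

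Most genes of the H3K4 and SUMO lists were also called higher in ES cells. Of all genes tested, 47.7% were called higher and 42.8% lower, with a median of 0.13. Of 19 genes of H3K4 methylation and demethylation, 16 were higher and 2 lower, with a median of 1.55. Dpy30 and Ash2l, core subunits of the H3K4 methyltransferases, were higher by 3.33 ± 0.08 and 2.67 ± 0.07. Kdm5d, a Y-linked demethylase, was lower by -3.12 ± 0.08 and Men1 by -0.25 ± 0.06. Uty, a Y-linked member of the lysine 27 list named after its values were seen, was higher by 2.49 ± 0.07. Of 17 SUMO pathway genes, 13 were higher and 3 lower, with a median of 0.56. Calls of at least 2-fold in either direction made up 58.8% of the SUMO list and 64.9% of all genes tested. For the H3K4 list the percentage was 68.4%. Pias2, an E3 ligase, and Uba2, a subunit of the E1 enzyme, were higher by 2.09 ± 0.05 and 2.02 ± 0.07. The SUMO proteases Senp7 and Senp5 were lower by -2.21 ± 0.08 and -1.83 ± 0.06.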

How the data were processed

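The authors deposited 1 peak list per antibody and condition, made from both replicates per the series' design text, with mm9 positions and no header. A score per peak, deposited by the authors, was used as a rank within its list and equals 10 times another column rounded down. The offset of the summit (another deposited value, in bases) placed each summit. Tools listed without roles in the submitters' processing notes are MACS2, Bowtie and bedtools 2.19.1. The sources used here do not give the peak threshold or the use of inputs. Repeated lines were removed, 5683 from H3K27me3 of MEF and 1752 from that of ES cells, and 18 of the 32 lists were used. Overlap was counted as at least 1 bp, in Python 3.11.15 code tested on simulated intervals.

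RNA values were deposited by the authors as raw read counts per gene, per the file headers, and the processing notes name STAR 2.5.0a and featureCounts. They do not give the strand setting or the annotation. Symbols matched 24191 of 26301 identifiers in a GRCm38 table used for names alone. Genes kept by filterByExpr (minimum count 10) were scaled by TMM and tested two-sided in edgeR 4.0.16 (R 4.3.3) over the 6 libraries, with Benjamini-Hochberg adjustment over all genes and calls at an adjusted p under 0.05. CPM are counts scaled to an effective library size of 1000000 and are not divided by gene length, so levels are not compared between genes. DESeq2 1.42.0 was an alternative.

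The members and the 12 gene lists were chosen with earlier results of these data known. Genes named are 9 fixed genes, in each pathway list the 2 called members with the largest rise and the 2 with the largest fall with at least 1 CPM in the higher group, and the 4 highest pluripotency and fibroblast markers. Some genes that this rule names are not reported here. Regions named come from the 3 peaks of highest score and the 3 widest of each class, and the 3 of highest score with both SUMO forms or with H3K27me3 of the other cell type, none of them on chromosome 18 or off the assembled chromosomes.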

Additional observations from a re-analysis of the deposited data

How the results depend on the processing

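Classes are counts of peaks. In the 50% of each list with the highest scores, 6418 MEF and 6052 ES peaks were shared and 12271 and 6584 were specific, by construction of a shorter list, at percentages close to those of the whole lists (34.3% and 47.9% shared). With equal numbers of peaks, MEF-only peaks were 14829. With peaks under 1000 bp apart merged, ES-only peaks were 8378, or 49.1% of the merged ES list, and no longer the majority. Overlaps of 50%, windows of 500 bp around midpoints and autosomes alone kept the 4 counts within 1.5 times. The shared percentages still fell under the stricter rules. They were 22.4% in MEF and 33.2% in ES cells with an overlap of 50% of both peaks, and 24.6% and 36.1% with the 500 bp windows. With 1 bp they were 33.2% and 46.0%. With equal numbers, the median width of shared minus specific peaks was -172 bp in MEF and 111 bp in ES cells, and the difference in score rank 20.8 and 27.1.

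For marks, values are specific minus shared in percentage points, and no direction turned but that of H3K27me3 in ES cells. In the 50% of highest score, with classes formed again, MEF values were -56.9 for H3K4me3, 40.03 for H3K4me1, 1.88 for H3K9me3, 15.1 for SUMO-1 and 23.6 for SUMO-2, and ES values -40.4, 21.4, 4.53, 7.66 and 9.75, with 0.12 for H3K27me3 in place of -0.04, both within counting error of 0. In 1000 bp windows, MEF values were 40.9 for H3K4me1, 1.33 for H3K9me3 and 10.2 for SUMO-1, and ES values 18.1 for H3K4me1, 5.74 for SUMO-1 and 6.86 for SUMO-2. With 50% of the smaller peak, SUMO-1 in MEF was 10.7. For SUMO-1 or SUMO-2 together, alternatives chosen after seeing the data gave -0.00996 points in MEF at the H3K4 methylation mix of shared peaks, a turned sign, and 4.12 in ES cells. They gave 23.2 and 11.3 over 4 score groups at the spread of shared peaks, and H3K4 methylation still differed within those groups. Without peaks that touch H3K9me3 the ES value was 5.75.

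Other alternatives, also added after seeing the data, formed the classes again from the 50% of highest score, so that specific peaks include some with a weaker counterpart. H3K4me3 of the other cell type was then at 34.0% of MEF-only and 27.6% of ES-only peaks, and H3K27me3 of ES cells at 3.34% of MEF-only peaks. Acetylation on day 4 was at 61.6% of MEF-only, 27.3% of ES-only, 96.1% of MEF shared and 96.4% of ES shared peaks.

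The RNA counts of called genes stayed within 1.5 times in the alternatives run, and from 16185 to 16617 genes were called when 1 library was left out. Library sizes alone moved the median of all genes by 0.13 (log2) and not filtering moved it by 0.22. With DESeq2, 16046 genes were called. The replicate numbers did not pair the samples, with correlations of deviations of -0.16, -0.21 and 0.01 for equal numbers, and 16086 genes were called with the replicate block. Among named genes, Ncoa2 and Men1 lost their calls with library sizes alone (log2 fold changes -0.12 and -0.11), and Ncoa2 without MEF replicate 3 and without ES replicate 3 (-0.23 and -0.23). Kdm6b passed with library sizes alone (0.85), without the filter (0.69) and without ES replicate 1 (1.01). The cause of these changes was not tested.

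Read depth per ChIP library was not analysed here, and the absence of a peak from a list does not show the absence of acetylation.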
